A study of Mus musculus with 12 samples.

Results

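Set 3 (1-g v.s. control) compares MLO-Y4 cells kept in a 16 T field at unchanged apparent gravity with MLO-Y4 cells kept outside the magnet. MLO-Y4 is an immortalised mouse line from long bone with the dendritic shape of osteocytes, the cells that lie buried in bone matrix and sense its load. Cells at 1-g (treatment label LG-HMF 1-g) stood for 48 h in the bore of a superconducting magnet, at the position where the field was 16 T and its gradient gave no net force. Control cells stood for 48 h at normal earth gravity in the geomagnetic field, with the same temperature and carbon dioxide supplied. The members are all samples with these labels, 3 arrays of 1-g and 3 of control, which is 6 of the 12 arrays of the series. The other 6 arrays are μ-g and 2-g, both at 12 T, where the gradient pulled against or with gravity. Both groups of the comparison are of 1 cell line with no genetic change between them. Field, magnet bore and sample holder came together in 1-g, so their parts in a difference cannot be told apart. The comparison asks what the magnet and its field did to gene expression without a change of apparent gravity.

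RNA was read on Affymetrix Mouse Gene 1.0 ST arrays, and 19938 genes with 1 symbol were compared on the log2 scale of RMA values. The samples are labelled as biological replicates, but no source used here tells whether they were separate cultures, so p-values measure only the spread between these samples. Across transcript clusters, which are not independent of each other, Pearson's r was 0.997 to 0.998 within 1-g and within control, and 0.996 to 0.998 between them. A gene is called where limma gave an adjusted p under 0.05 over all genes. A second fit added the replicate number as a blocking term, named the block from here on, which takes out differences that same-numbered arrays share. Its terms were fitted over all 12 arrays, so a call with the block is not a paired test of 1-g and control alone. Of the markers of osteocytes and osteoblasts, Gja1 (connexin 43) averaged 12.05 and Pdpn (podoplanin) 12.27 in 1-g, while Sost averaged 7.28, Dmp1 5.58, Phex 5.46 and Mepe 5.11. The median level of all genes was 7.50, and RMA values carry no detection call, so the absence of the late osteocyte markers cannot be stated. Of 23 such markers 0 passed in 1-g v.s. control and their median log2 fold change was −0.02. With the block 1 of the 23 rose, Hyou1 (0.23, adjusted p = 0.507 and 0.0471), beside 1.03% of all genes. In bulk RNA, fewer cells of a type and less RNA per cell cannot be told apart.

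Of the 29 genes that fell in 1-g, 10 belong to lists of the response to low oxygen or of glycolysis. Hypoxia-inducible factors (HIFs) pair an oxygen-labile subunit, Hif1a or Epas1, with the stable partner Arnt. While oxygen is present, prolyl hydroxylases such as Egln1 mark the labile subunit, and Vhl then directs its destruction. In low oxygen the pair builds up and raises genes of glycolysis, pH control and mitochondrial turnover, among them Egln1 itself. Osteocytes live with little oxygen inside the bone matrix, and HIF activity in them is known to shape bone mass.

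In 1-g, 35 genes were up-regulated and 29 down-regulated against control, 64 in all, or 0.321% of the genes tested (0.176% up and 0.145% down). With the block 352 genes passed (1.77%), of which 205 were up-regulated (1.03%) and 147 down-regulated (0.737%), and all 64 were among them. Falls were larger than rises. The log2 fold changes of the called genes ran from −2.04 to −0.29 on the falling side and from 0.25 to 0.62 on the rising side. At a fold change above 1.5 and an unadjusted P under 0.05, 1 gene was up-regulated and 27 were down-regulated, 0.14% of those tested. Above 2-fold 12 genes were lower and 0 higher. Of these 28 genes 10 were called, and all 28 with the block. At unadjusted P alone 2158 genes passed, 1553 higher and 605 lower. All 3 arrays of one group lay above all 3 of the other in 2983 genes (15.0%), and in all 64 called genes. The calls rest on the spread pooled over the 12 arrays, since a fit of only the 6 arrays called 0 genes (2006 at unadjusted P), and 0 with the block as well (2985 at unadjusted P). Without 1-g replicate 1 or without 1-g replicate 2 the number called was 0, and without 1-g replicate 3 it was 1 (Mir18). With the block it was 68 without 1-g replicate 2, 70 without control replicate 2 and 71 without control replicate 1. Of the 64 genes 20 were called with the block whichever of the 12 arrays was left out. They were Ndufa4l2, Bnip3, Cox7a1, Ang2, Mir18, Pgk1, Slpi, Tnfrsf9, Pafah1b3, D3Ertd751e, Psrc1, Epas1, Fndc3a, Ccng1, Idua, 1700007K13Rik, Ttll5, Marf1, Gnptab and Mkks.

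**Figure D1:**
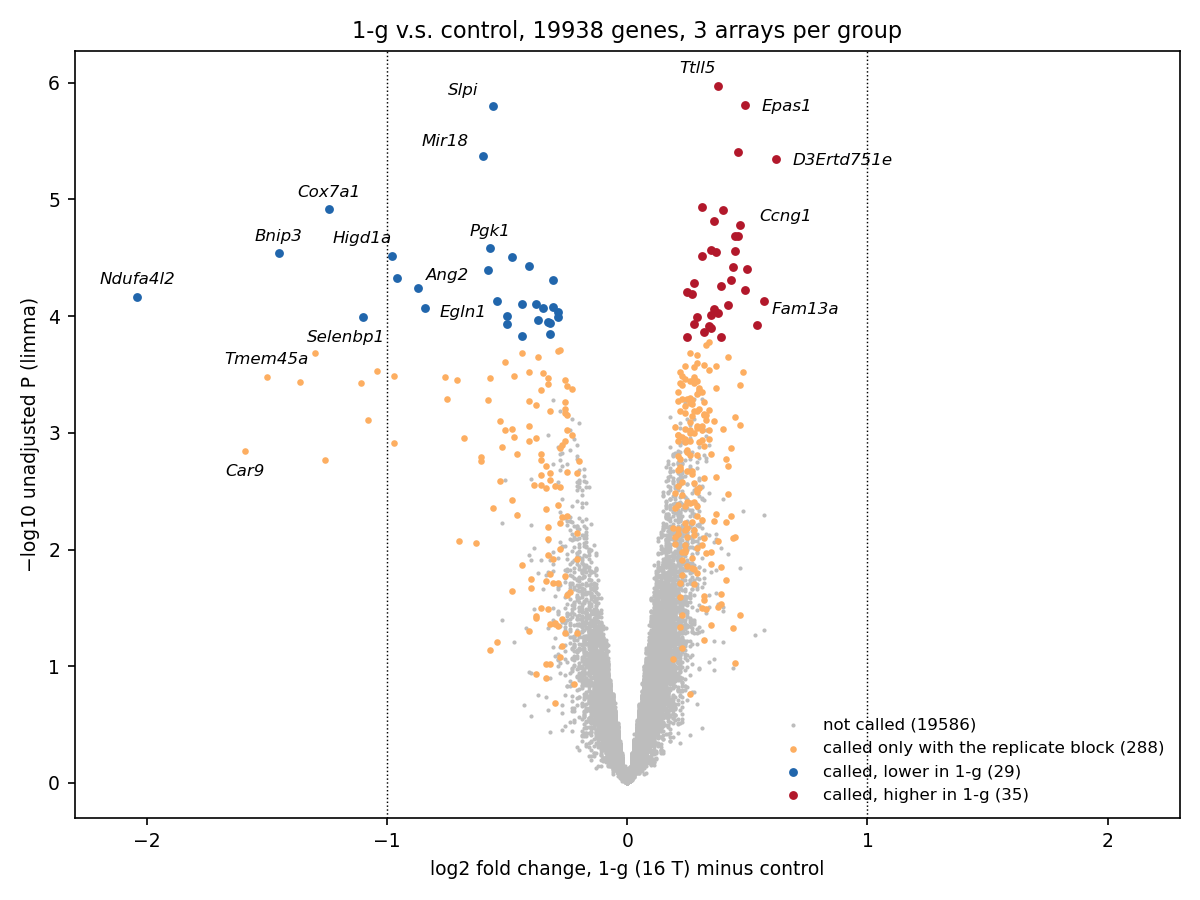
Volcano plot of 1-g v.s. control, with the log2 fold change on the x axis and −log10 of limma's unadjusted P on the y axis, 1 point per gene (19938 genes). Blue points are the 29 called genes that were lower in 1-g, red the 35 that were higher, and orange the 288 called only with the block; dotted lines mark a 2-fold change. The largest falls reach −2.04 (Ndufa4l2), whereas no rise exceeds 0.62 (D3Ertd751e).

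Ndufa4l2, a mitochondrial protein made in low oxygen that restrains the respiratory chain, had the largest fall. Its log2 values were 7.12, 7.14 and 6.78 in 1-g replicates 1, 2 and 3 and 8.94, 10.04 and 8.18 in control. The groups did not overlap, but the control arrays spread widely, with replicate 2 highest and replicate 3 lowest. The difference was −2.04 (SE 0.34, adjusted p = 0.0391), which is 4.11-fold lower in 1-g. This SE pools the spread of all groups. For Ndufa4l2 the SD was 0.93 in control, 0.21 in 1-g, 0.14 in μ-g and 0.32 in 2-g. Bnip3, which sits on the outer membrane of mitochondria and marks them for mitophagy, read 10.07, 10.29 and 10.06 in 1-g and 11.78, 12.03 and 10.95 in control. Control replicate 3 again lay closest to 1-g, and the difference was −1.45 (SE 0.22, adjusted p = 0.0293), or 2.73-fold lower. Cox7a1, a subunit of cytochrome c oxidase, read 8.10, 8.25 and 8.16 in 1-g and 9.38, 9.82 and 9.03 in control (−1.24, SE 0.17, adjusted p = 0.0272). Higd1a, a small mitochondrial protein of the hypoxia response, read 7.62, 7.93 and 7.98 in 1-g and 8.83, 9.19 and 8.45 in control (−0.98, SE 0.15, adjusted p = 0.0293). The order of the control arrays was the same in these genes, while the order within 1-g was not. Selenbp1 and its near copy Selenbp2 (selenium-binding proteins) fell by 1.10 (SE 0.19) and 0.96 (SE 0.16) on the log2 scale, at adjusted p = 0.0396 and 0.0353. As near copies they may share signal, so the 2 are not independent. Cluster numbers on this array mostly run by chromosome. Those of Bnip3, Higd1a and Ak4 (given below) lie among clusters of genes on other chromosomes than their own. Their signal may therefore come in part from like sequence elsewhere in the genome, which was not tested.

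**Figure D2:**
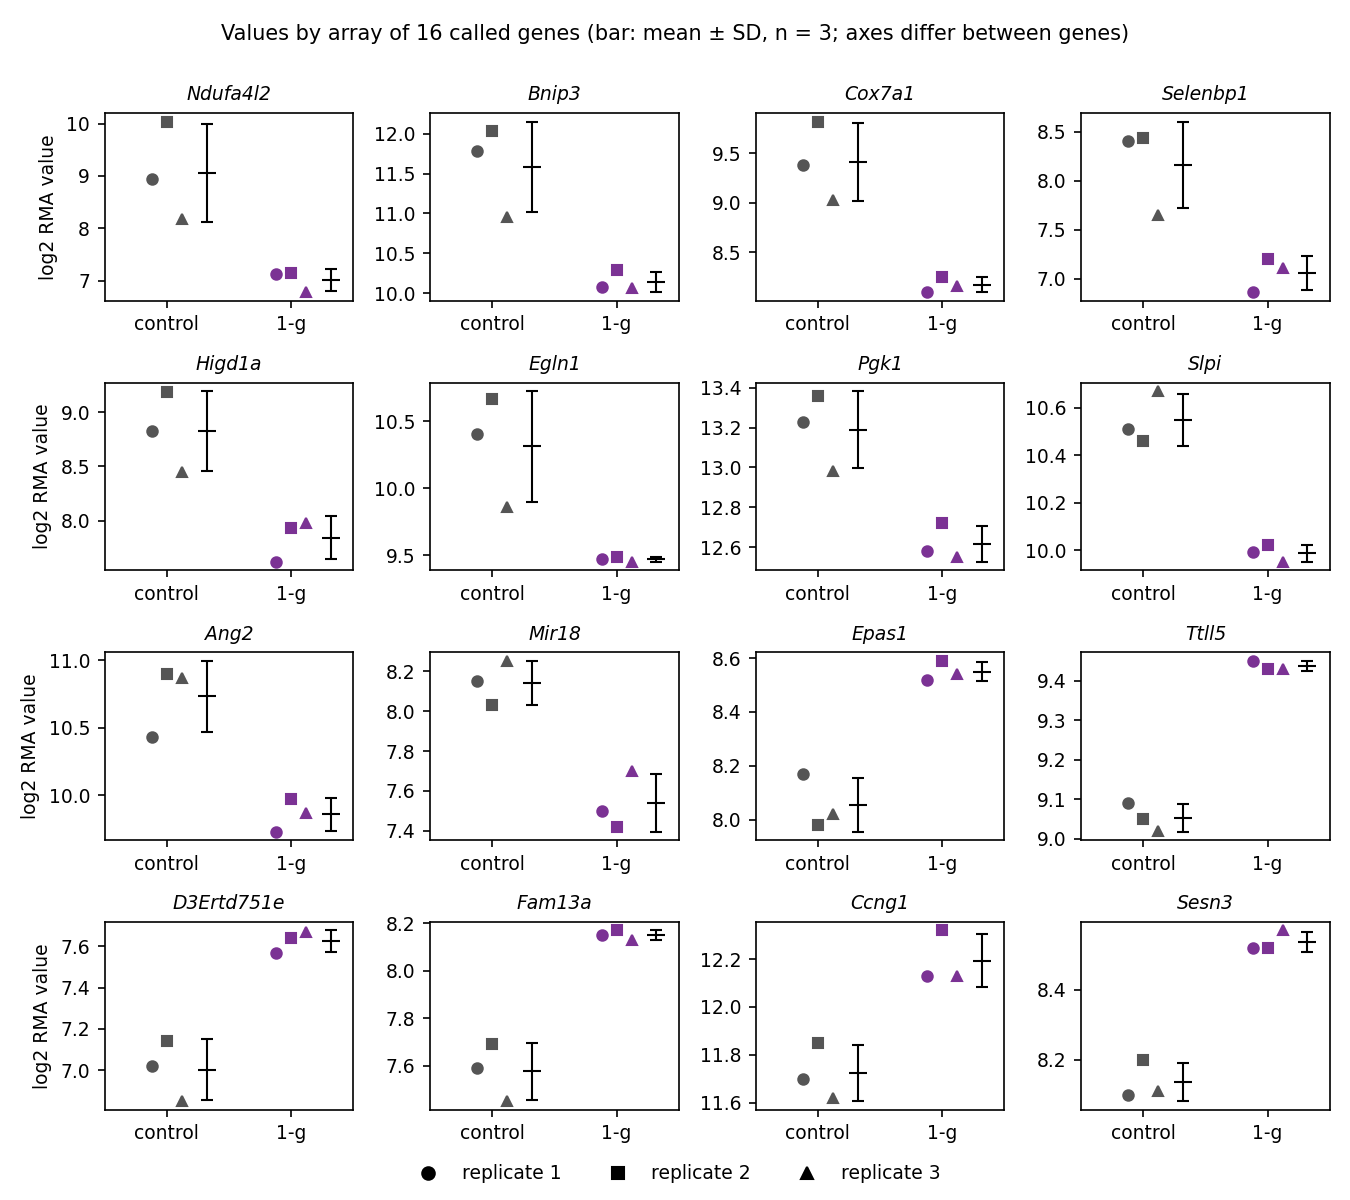
Log2 RMA values (y axis) of 16 called genes by array in control (grey) and 1-g (purple), with the replicate number as the marker shape and the mean ± SD of 3 arrays beside the points. The groups do not overlap in any panel; in Ndufa4l2 the control arrays range from 8.18 to 10.04 and the 1-g arrays from 6.78 to 7.14, while in Ttll5 every group spans under 0.1.

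Of the 39 measured genes of a hypoxia response list, 0 rose, 6 fell and 33 did not pass, against 0.145% of all genes that fell. With the block 19 of them fell, against 0.737% of all genes. The 6 were Ndufa4l2, Bnip3, Selenbp1, Higd1a, Egln1 and Ndrg1. The list had a median of −0.32 beside 0.02 over all genes, and 37 of its 39 members were negative. In 27 of the 39 (69.2%) all 1-g arrays lay below all control arrays. The same held for 882 of all 19938 genes, and 15.0% of all genes did not overlap in either direction. Car9, the extracellular carbonic anhydrase used as a hypoxia marker, read 6.48, 6.54 and 6.13 in 1-g and 7.76, 9.01 and 7.15 in control. Between same-numbered arrays, 1-g minus control was −1.28, −2.47 and −1.02 in replicates 1, 2 and 3. Despite a difference of −1.59 (SE 0.39) Car9 did not pass (adjusted p = 0.127), but it did with the block (adjusted p = 0.0123). Tmem45a (−1.50, adjusted p = 0.0714 and 0.0134 with the block), Ak4, a mitochondrial adenylate kinase (−1.36, adjusted p = 0.0715 and 0.00615), and Pdk1, which closes the entry of pyruvate into the TCA cycle (−1.30, adjusted p = 0.0587 and 0.0106), behaved the same way. Fam162a (−1.11), Car12 (−1.04), Mgarp (−0.97), Stc1, a secreted calcium and phosphate regulator (−0.76), and Ero1a, an oxidase of the endoplasmic reticulum (−0.61), passed with the block alone too. For other well-known targets the differences were small. Vegfa, the main angiogenic factor, had a log2 fold change of −0.01, Pfkfb3 of −0.03, Hk2 of −0.13, Slc2a1 (the glucose transporter GLUT1) of −0.24 and Bnip3l of −0.15, and none of these passed in either fit.

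The control arrays differed among themselves in these genes more than the 1-g arrays did. The SD over 3 arrays was larger in control than in 1-g in 32 of the 39 hypoxia genes, with a median SD of 0.22 in control and 0.12 in 1-g, beside 0.07 and 0.08 over all genes. In μ-g and 2-g the median SD of the list was 0.13 and 0.09, and limma's SEs pool the spread of all groups. Control replicate 2 was the highest control array in 28 of the 39 and control replicate 3 the lowest in 28. Taking each gene relative to its own control mean, the median of the list was 0.01, 0.19 and −0.13 in control replicates 1, 2 and 3 and −0.32, −0.42 and −0.36 in 1-g. The groups thus stayed apart at the level of the list.

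Glycolysis, which breaks glucose down to pyruvate and lactate, held further falls. Of 22 measured genes 0 rose, 4 fell and 18 did not pass, against 0.145% of all genes that fell, and with the block 13 fell, against 0.737% of all genes. Their median was −0.33 beside 0.02 over all genes. The 4 called genes were Pgk1, Tpi1, Aldoa and Pkm, each an enzyme of the pathway. Pgk1 (phosphoglycerate kinase) read 12.58, 12.72 and 12.55 in 1-g and 13.23, 13.36 and 12.98 in control, a difference of −0.57 (SE 0.09, adjusted p = 0.0293). Tpi1 fell by 0.37 (adjusted p = 0.0416), Aldoa by 0.33 (adjusted p = 0.0416) and Pkm by 0.29 (adjusted p = 0.0396), all on the log2 scale. Aldoa may share signal with its retrogene Aldoart1. Aldoc (−1.08), Pfkl (−0.68), Eno2 (−0.57), Pgm1 (−0.53), Pfkp (−0.36), Pgam1 (−0.33) and Ldha (−0.32) passed with the block alone. Hk1 (−0.09), Ldhb (0.00) and Pfkm (0.07), other isoforms of the same steps, did not pass in either fit. The called genes also held glycogen enzymes and a transporter of glucose-6-phosphate. No list of glycogen genes was used and these were picked from the calls, so nothing follows for glycogen genes as a group. Gys1 (glycogen synthase of muscle type) fell by 0.44 (adjusted p = 0.0396), Pygl (glycogen phosphorylase of liver type) by 0.50 (adjusted p = 0.0396) and Slc37a4 (the glucose-6-phosphate transporter) by 0.41 (adjusted p = 0.0318). In the TCA cycle 0 of 19 genes were called and the median was 0.02. With the block 1 of the 19 rose, beside 1.03% of all genes, namely Ogdh, a subunit of oxoglutarate dehydrogenase (0.24, adjusted p = 0.114 and 0.0360). Of 14 carbonic anhydrases and genes of acid export 0 were called. With the block 3 fell, beside 0.737% of all genes, namely Car9, Car12 and Slc16a3, the lactate exporter MCT4 (−0.34, adjusted p = 0.162 and 0.0335). In the respiratory chain 1 of 36 fell (Cox7a1), against 0.145% of all genes, and the median was −0.04. With the block Cox4i2 fell too (−0.46, adjusted p = 0.212 and 0.0444), so 2 of the 36 fell, beside 0.737% of all genes.

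Of the 15 measured genes of HIF subunits and oxygen sensing 1 rose and 1 fell, against 0.176% and 0.145% of all genes, and 13 did not pass. Their median was −0.04. Egln1, the main oxygen-sensing prolyl hydroxylase and itself a HIF target, read 9.47, 9.49 and 9.45 in 1-g and 10.41, 10.67 and 9.86 in control, a fall of 0.84 on the log2 scale (SE 0.15, adjusted p = 0.0396). Epas1, which encodes HIF-2α, went the other way. Its values were 8.52, 8.59 and 8.54 in 1-g and 8.17, 7.98 and 8.02 in control, so the 3 arrays of each group lay close together and far from the other group. The rise was 0.49 (SE 0.06, adjusted p = 0.0105), among the smallest adjusted p-values of the comparison together with Slpi and Ttll5. Hif1a (0.16, adjusted p = 0.248 and 0.0961 with the block) and its partner Arnt (0.15, adjusted p = 0.171 and 0.0976) did not pass. Arnt read 11.87, 11.86 and 11.87 in 1-g and 11.71, 11.72 and 11.72 in control. Vhl (−0.15), Egln3 (−0.33), Egln2 (−0.03) and Hif1an (0.08) did not pass either. Among 28 enzymes that like Egln1 use oxygen and 2-oxoglutarate, Egln1 alone was called, against 0.145% of all genes that fell. With the block 1 of the 28 rose, beside 1.03% of all genes, namely P4ha3, a collagen prolyl hydroxylase (0.39, adjusted p = 0.304 and 0.0162).

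Sequence just upstream of the called genes can be set beside these values. RefSeq promoter windows (GRCm38.p6, 300 bases, most of them before a start site) were held for 22 of the 29 genes that fell and 31 of the 35 that rose. HIFs bind a short core that reads ACGTG or GCGTG, and both were searched on both strands. ACGTG was found in a window of 14 of the 22 genes that fell (63.6%), 6 of the 31 that rose (19.4%) and 3809 of all 15614 genes with a window (24.4%). GCGTG was found for 10 of the 22 (45.5%), 17 of the 31 (54.8%) and 44.4% of all. Among the genes called with the block, ACGTG was found for 43 of 114 that fell (37.7%) and 41 of 167 that rose (24.6%). A match of 5 letters is a description and not a bound site. The windows belong to the named genes, whereas the clusters of Bnip3 and Higd1a may read like sequence elsewhere in part. Windows of 4 of the genes with the largest falls are shown 5′ to 3′ on the gene's strand with ACGTG or its reverse complement CACGT in capitals. They lie at chr7:138909457-138909756 on the minus strand (Bnip3), chr7:30183921-30184220 on the plus strand (Cox7a1), chr9:121857747-121858046 on the minus strand (Higd1a) and chr8:124949205-124949504 on the minus strand (Egln1).
Bnip3: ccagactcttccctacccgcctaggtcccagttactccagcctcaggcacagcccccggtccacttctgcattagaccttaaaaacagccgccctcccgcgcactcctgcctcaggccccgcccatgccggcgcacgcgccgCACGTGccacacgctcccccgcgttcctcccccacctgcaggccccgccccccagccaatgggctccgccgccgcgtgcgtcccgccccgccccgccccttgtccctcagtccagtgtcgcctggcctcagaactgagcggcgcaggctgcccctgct
Cox7a1: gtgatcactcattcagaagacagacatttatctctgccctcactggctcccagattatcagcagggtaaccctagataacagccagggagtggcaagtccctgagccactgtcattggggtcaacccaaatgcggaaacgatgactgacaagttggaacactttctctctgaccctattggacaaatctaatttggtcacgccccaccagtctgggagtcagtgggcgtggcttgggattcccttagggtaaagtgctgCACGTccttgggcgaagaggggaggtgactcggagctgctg
Higd1a: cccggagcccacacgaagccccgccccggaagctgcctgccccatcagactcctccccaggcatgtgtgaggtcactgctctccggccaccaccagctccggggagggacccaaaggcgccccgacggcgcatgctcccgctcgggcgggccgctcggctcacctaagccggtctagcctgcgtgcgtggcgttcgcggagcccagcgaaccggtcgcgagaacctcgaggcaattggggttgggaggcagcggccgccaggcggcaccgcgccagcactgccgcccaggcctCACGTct
Egln1: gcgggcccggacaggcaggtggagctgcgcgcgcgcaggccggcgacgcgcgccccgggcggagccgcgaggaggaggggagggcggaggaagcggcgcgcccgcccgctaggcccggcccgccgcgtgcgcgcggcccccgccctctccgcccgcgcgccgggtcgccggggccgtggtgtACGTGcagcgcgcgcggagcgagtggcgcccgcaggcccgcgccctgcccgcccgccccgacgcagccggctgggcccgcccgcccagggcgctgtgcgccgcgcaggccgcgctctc
In Bnip3 both strands of 1 palindrome match, so its 2 matches overlap. The matches of Bnip3 and Egln1 lie before the start site, and those of Cox7a1 and Higd1a past it.

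Most other genes that fell belong to neither list. Slpi, a secreted inhibitor of leukocyte proteases, had one of the smallest adjusted p-values, with 9.99, 10.02 and 9.95 in 1-g and 10.51, 10.46 and 10.67 in control (−0.56, SE 0.06, adjusted p = 0.0105). Ang2, an angiogenin of the ribonuclease A family, fell by 0.87 (SE 0.14, adjusted p = 0.0369), and S100a7a, a small calcium-binding protein, by 0.58 (adjusted p = 0.0318). Unlike in the hypoxia genes, control replicate 3 was not the lowest control array for Slpi or Ang2. Tnfrsf9 (the costimulatory receptor 4-1BB) fell by 0.50, Pafah1b3 by 0.48, Grhpr (glyoxylate reductase) by 0.44 and Ramp3, a partner of the adrenomedullin receptor, by 0.38. Sat1, which starts the breakdown of polyamines, fell by 0.29. Ndrg1, a stress-induced gene of the hypoxia list, fell by 0.35, and Igsf5, Dusp28, Rnf39 and Snhg5, a host of small nucleolar RNAs, by 0.31 to 0.32. Crct1 (−0.97, adjusted p = 0.0714 and 0.0055 with the block), Ndrg2 (−1.26, adjusted p = 0.133 and 0.0177), Clec4e (−0.70, adjusted p = 0.253 and 0.0117) and Neu2 (−0.63, adjusted p = 0.256 and 0.0193) passed with the block alone.

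Precursors of 2 microRNAs, Mir18 and Mir19a, fell, out of 296 measured, 294 of which did not pass, against 0.145% of all genes that fell, and the median over all precursors was 0.00. They are neighbours in the cluster of Mir17hg, a single primary transcript on mouse chr14 that is cut into several microRNAs known to promote growth. Mir18 lies at chr14:115043851-115043946 and Mir19a at chr14:115044000-115044081 on the plus strand (GRCm38.p6). Their RefSeq mature sequences are shown with those of their measured neighbours, with the seed (bases 2 to 8) that reads target messages in capitals, to show which microRNAs share a seed.
mmu-miR-17-5p: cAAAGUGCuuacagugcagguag
mmu-miR-18a-5p: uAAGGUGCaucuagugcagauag
mmu-miR-19a-3p: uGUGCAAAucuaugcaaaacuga
mmu-miR-20a-5p: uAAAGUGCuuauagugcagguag
mmu-miR-19b-3p: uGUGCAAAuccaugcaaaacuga
miR-19a-3p and miR-19b-3p share 1 seed, miR-17-5p and miR-20a-5p another, and that of miR-18a-5p differs from both. Mir18 read 7.50, 7.42 and 7.70 in 1-g and 8.15, 8.03 and 8.25 in control, a fall of 0.60 (SE 0.08, adjusted p = 0.0150). Mir19a read 6.11, 6.28 and 6.40 in 1-g and 6.98, 6.63 and 6.81 in control, a fall of 0.54 (SE 0.09, adjusted p = 0.0396). Neither pair of groups overlapped, though Mir19a lay below the median level of 7.50 over all genes in both groups. The other members did not pass, with log2 fold changes of 0.02 for Mir17, −0.04 for Mir20a and −0.10 for Mir19b-1. Their control means were low, at 5.48, 5.03 and 5.26 beside a median level of 7.50 over all genes. The lack of a call therefore does not show that they were unchanged. Mir17hg, the host transcript, had a log2 fold change of −0.28 (adjusted p = 0.255 and 0.0971 with the block). The array reads the precursor or its host and not the mature microRNA.

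The rises were small and belonged to genes of several roles. D3Ertd751e was the only one above 1.5-fold. It read 7.57, 7.64 and 7.67 in 1-g and 7.02, 7.14 and 6.85 in control (0.62, SE 0.08, adjusted p = 0.0150). Ttll5, an enzyme that adds glutamate chains to tubulin, read 9.45, 9.43 and 9.43 in 1-g and 9.09, 9.05 and 9.02 in control (0.38, SE 0.04, adjusted p = 0.0105). The arrays of each group differed by less than 0.1 in Ttll5, so a small rise passed. Enzymes and sorting factors of the lysosome were among the called genes, although no list of them was used. They were Idua (0.46), which cuts glycosaminoglycans, Manba (0.38), which cuts mannose chains, Dpp7 (0.39), a peptidase, and Gnptab (0.36), which tags enzymes for the lysosome. As they were picked from the calls, nothing follows for lysosomal genes as a group. Uggt1 (0.29) and Mlec (0.25) check the folding of glycoproteins in the endoplasmic reticulum. Elovl6 (0.45) lengthens fatty acids, Castor2 (0.43) belongs to the arginine sensors of the mTORC1 growth pathway, and Aldh4a1 (0.35) breaks down proline. Tgfb3 (0.35) is a growth factor of the TGF-β family and Spry4 (0.34) an inhibitor of receptor tyrosine kinase signalling. Psrc1 (0.54) is a spindle protein, Mkks (0.31) a chaperonin-like protein of the cilium base, Exoc4 (0.36) a subunit of the exocyst and Cars2 (0.28) the mitochondrial cysteinyl-tRNA synthetase. Fam13a (0.57), Stxbp4 (0.50), Fndc3a (0.49), 1700007K13Rik (0.46), Zfp418 (0.45), Parp11 (0.44), Pakap (0.42), Oas3, an interferon-induced synthetase (0.39), Marf1 (0.37), Trmt1l (0.35), Ppip5k1 (0.32), Scrn3 (0.31), Sh3d19 (0.28), Ahcyl2 (0.27) and Mfsd12 (0.25) complete the 35.

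Ccng1 and Sesn3 come from a list of p53 targets and sestrins, genes that p53 turns on after stress or that restrain growth signalling. Of its 19 measured genes 2 rose, 0 fell and 17 did not pass, beside 0.176% of all genes that rose, and with the block 6 rose, beside 1.03% of all genes. The median was 0.16 beside 0.02 over all genes. Ccng1, a cyclin induced by p53, read 12.13, 12.32 and 12.13 in 1-g and 11.70, 11.85 and 11.62 in control (0.47, SE 0.07, adjusted p = 0.0293). Sesn3, a sestrin that damps mTORC1 signalling, read 8.52, 8.52 and 8.57 in 1-g and 8.10, 8.20 and 8.11 in control (0.40, SE 0.06, adjusted p = 0.0272). With the block Trp53inp1 (0.43, adjusted p = 0.0103), Zmat3 (0.41, adjusted p = 0.0143), Mdm2, the ubiquitin ligase of p53 (0.32, adjusted p = 0.0210), and Phlda3 (0.30, adjusted p = 0.0252) rose too. Gadd45a (−0.27), Plk2 (−0.26) and Bbc3 (−0.07), also targets of p53, lay on the other side and did not pass. Of 26 genes of the BCL2 family and caspases 0 passed in either fit, and the median was 0.03. At unadjusted P 1 was higher and 1 lower, beside 1553 and 605 of all 19938 genes.

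The genes of a list of cholesterol synthesis, which also holds enzymes of fatty acid synthesis, had positive log2 fold changes without a call. Elovl6 (0.45), which was called, is not in this list. Of 24 measured genes 0 passed in the fit without the block. At unadjusted P 11 were higher and 0 lower, beside 1553 and 605 of all 19938 genes. All 24 log2 fold changes were positive, beside 11640 of all genes, and the median was 0.17 beside 0.02. Relative to the control mean the median of the list was −0.15, 0.08 and 0.06 in control replicates 1, 2 and 3 and 0.11, 0.19 and 0.20 in 1-g, so control replicate 1 lay apart, and without it the median log2 fold change was 0.08. With the block 2 of the 24 rose, beside 1.03% of all genes. They were Acaca, the first enzyme of fatty acid synthesis (0.31, adjusted p = 0.221 and 0.0184 with the block), and Insig1, a brake on sterol synthesis (0.27, adjusted p = 0.148 and 0.0432). The other enzymes, Dhcr7 (0.29), Fasn (0.24), Lss (0.20) and Hmgcs1 (0.19) among them, did not pass in either fit.

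Small nucleolar RNAs, which guide the chemical marking of ribosomal RNA, had a median below 0. Of 54 measured genes 0 passed in either fit, and the median was −0.17 beside 0.02 over all genes. At unadjusted P 12 were lower and 0 higher, beside 605 and 1553 of all 19938 genes. Within 1-g the median of the class relative to the control mean was −0.10, −0.27 and −0.08 in replicates 1, 2 and 3, so 1-g replicate 2 lay lowest, and without it the median log2 fold change was −0.07. Cytosolic ribosomal proteins (median −0.02 over 68) and mitochondrial ones (−0.04 over 77) lay near 0, with 0 called in each. With the block 1 of the 77 fell, beside 0.737% of all genes, namely Mrpl54 (−0.26, adjusted p = 0.0714 and 0.0273).

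Heat shock genes were not called, with 0 of 19 passing and a median of 0.07. Hspa8 (0.04), Hspa1a (−0.07) and Hsp90aa1 (0.12) lay close to 0. With the block 3 of the 19 fell, beside 0.737% of all genes. They were Cirbp (−0.58, adjusted p = 0.083 and 0.0118 with the block), Rbm3 (−0.25, adjusted p = 0.214 and 0.0422) and Cryab (−0.29, adjusted p = 0.446 and 0.0335). Cirbp and Rbm3 encode RNA-binding proteins that cells make more of in mild cold, and Cryab a small chaperone. Cirbp read 8.37, 8.85 and 8.48 in 1-g and 9.01, 9.37 and 9.05 in control, without overlap. The study's methods describe control and monitoring of the temperature at the magnet's stage, no temperature of single samples was analysed here, and its part in any result was not tested. In the list of the circadian clock, 0 of 17 passed without the block and 2 fell with it, beside 0.737% of all genes. They were Ciart, a clock repressor (−0.71, adjusted p = 0.0714 and 0.00399 with the block), and Cry1, a cryptochrome (−0.27, adjusted p = 0.430 and 0.0358). Per1 and Per2 (both −0.18), Arntl (0.06) and Clock (0.25) did not pass in either fit.

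Many lists held few or no calls. With the block 1.03% of all genes rose and 0.737% fell, and single calls with the block in these lists stand beside those shares. Inflammatory cytokines and chemokines had 0 of 38 called and a median of −0.03. With the block 2 of the 38 were down-regulated, Clec4e and Ccl9 (−0.30, adjusted p = 0.160 and 0.0256 with the block). At unadjusted P 10 of the 38 were lower and 1 higher, beside 605 and 1553 of all 19938 genes. The groups did not overlap in 10 (26.3%), all lower in 1-g, beside 15.0% of all genes in either direction. Interferon genes had 0 of 23 called and a median of 0.09, and Oas2 rose with the block (0.45, adjusted p = 0.248 and 0.0161). Among genes tied to mechanical load, 0 of 27 YAP and mechanosensitive genes, 0 of 34 of cytoskeleton and adhesion and 0 of 27 calcium and mechanosensitive channels were called, with medians of −0.01, 0.01 and 0.04. With the block 1 gene of the first of these lists, Ccn2 (connective tissue growth factor), fell (−0.41, adjusted p = 0.114 and 0.0459), beside 0.737% of all genes. Collagens and matrix (0 of 28, median 0.03), matrix proteases (0 of 24, 0.04), iron handling (0 of 25, 0.04), NRF2 and antioxidant genes (0 of 27, −0.02), ER stress (0 of 30, 0.02), cell cycle (0 of 39, 0.03) and DNA repair (0 of 20, 0.08) had no call. With the block Dcn, the matrix proteoglycan decorin (−0.30, adjusted p = 0.705 and 0.0273), Plaur, the urokinase receptor (−0.32, adjusted p = 0.561 and 0.0117), Nqo1, a quinone reductase (−0.26, adjusted p = 0.0913 and 0.0240), and Tpm2, a tropomyosin (−0.36, adjusted p = 0.0757 and 0.0117), fell. Markers of other cells were not called either, with 0 of 14 for osteoclasts, 0 of 20 for macrophages, 0 of 12 for endothelium, 0 of 12 for muscle and 0 of 11 for adipocytes. Csf1r, the receptor of macrophage colony-stimulating factor, fell with the block (−0.26, adjusted p = 0.0929 and 0.0380). In the adipocyte list Pparg, the regulator of fat cells, rose with the block (0.34, adjusted p = 0.0913 and 0.0103), while Retn, the hormone resistin, had the largest difference and did not pass (−0.40, adjusted p = 0.292 and 0.0647), and Fabp4 (−0.05) and Adipoq (−0.02) lay near 0.

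**Figure D3:**
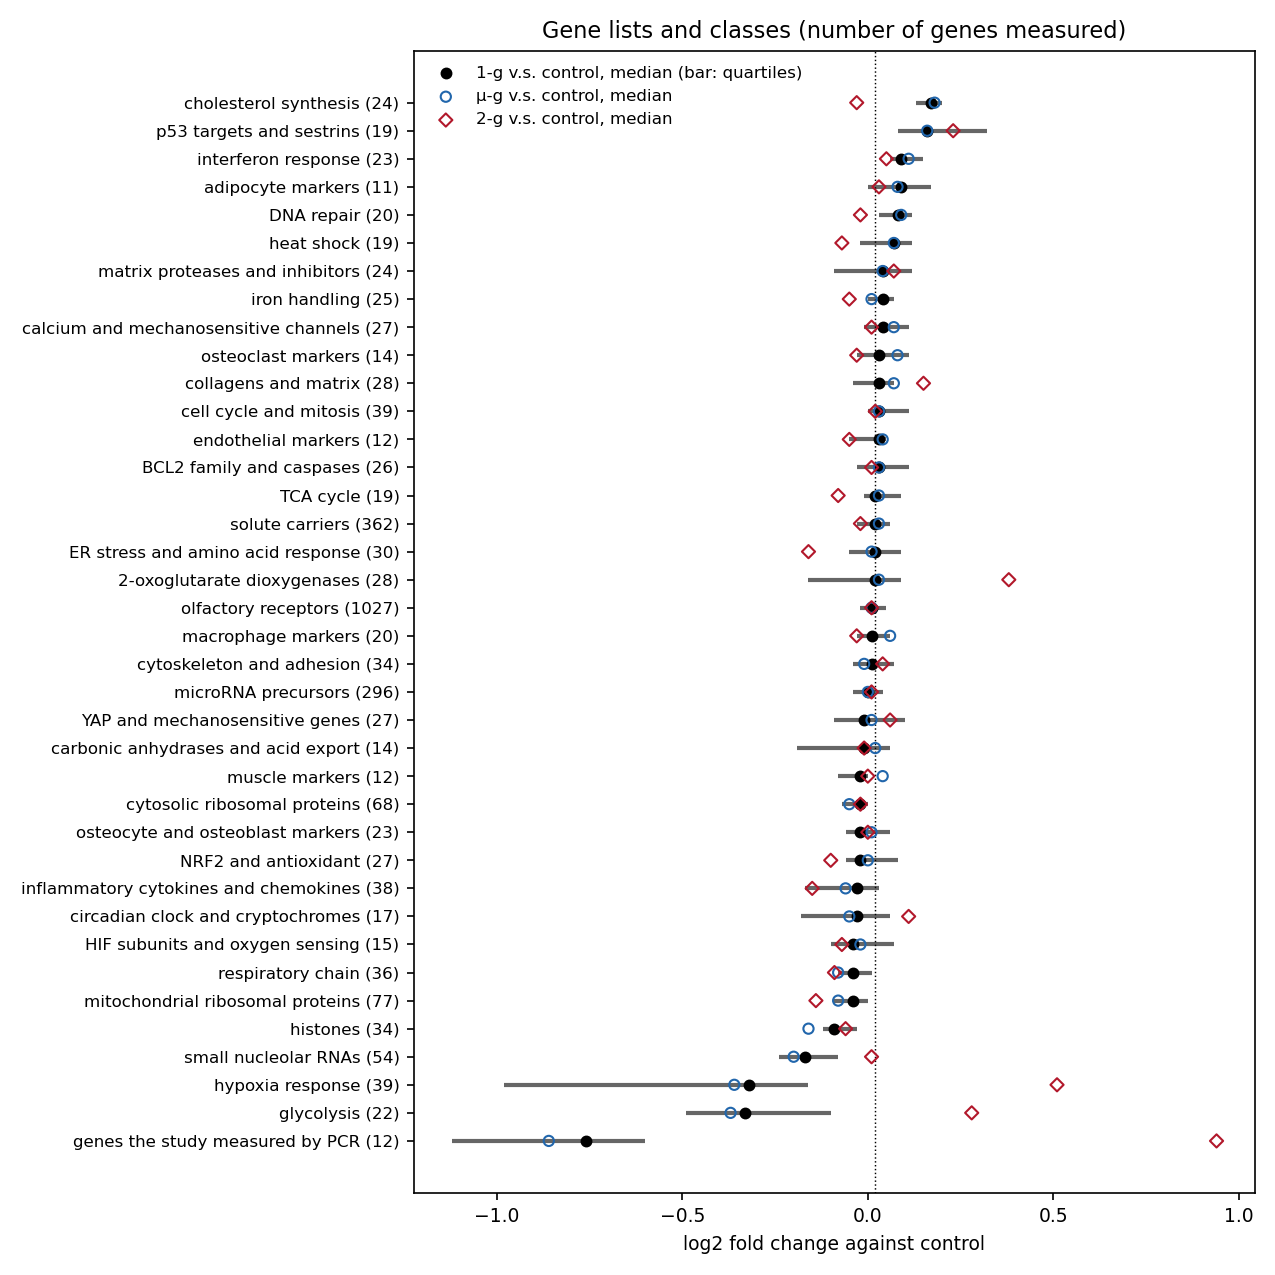
Median log2 fold change of each gene list or class in 1-g v.s. control (black, with bars from the lower to the upper quartile), in μ-g v.s. control (blue circles) and in 2-g v.s. control (red diamonds), which share the control arrays. The number of genes measured stands in brackets and the dotted line is the median of all genes in 1-g v.s. control (0.02). Hypoxia response (−0.32) and glycolysis (−0.33) lie lowest beside the 12 PCR genes (−0.76), and cholesterol synthesis (0.17) and p53 targets (0.16) lie highest.

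The list of genes taken on to PCR was chosen from these same arrays, so its direction is not independent. Of its 12 genes 1 fell (Cox7a1), against 0.145% of all genes, and 10 fell with the block, against 0.737% of all genes, with a median of −0.76. They included Gpr35, a G protein-coupled receptor (−0.75, adjusted p = 0.083 and 0.0103 with the block), Apln, the ligand apelin (−0.61, adjusted p = 0.134 and 0.0259), and Adm, the peptide adrenomedullin (−0.56, adjusted p = 0.198 and 0.0228). Gpr84 (−0.52) and P4ha1 (−0.19), a collagen prolyl hydroxylase, did not pass in either fit.

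The 1-g group was then set against the other positions in the magnet, with the test of each difference. Between μ-g and 1-g 0 genes were called by limma (0.0%), 460 passed at unadjusted P, and 0 were called with the block. Between 2-g and 1-g 451 genes differed (2.26%), and 1510 with the block. Of the 29 genes that fell in 1-g v.s. control 22 were higher in 2-g than in 1-g, and of the 35 that rose 5 were lower in 2-g. Both tests use the 1-g arrays that chose these genes, so the direction of these differences is partly set by that choice. Ndufa4l2 changed by −2.04 in 1-g, −2.12 in μ-g and 1.60 in 2-g, each against the same control arrays, and by 3.64 between 2-g and 1-g (adjusted p = 0.000241). Bnip3 changed by −1.45, −1.70 and 0.99 in the same order, Egln1 by −0.84, −0.84 and 0.76, and Epas1 by 0.49, 0.64 and −0.09. Mir18 (−0.60, −0.52 and −0.55), Sat1 (−0.29, −0.31 and −0.32), Psrc1 (0.54, 0.53 and 0.53) and Ttll5 (0.38, 0.35 and 0.31) had like values in all positions. For none of these 4 did 2-g and 1-g differ (adjusted p = 0.835, 0.856, 0.983 and 0.512), which does not show that they are equal. The hypoxia list had medians of −0.32, −0.36 and 0.51, glycolysis of −0.33, −0.37 and 0.28, and p53 targets of 0.16, 0.16 and 0.23. Taken gene by gene, the median of 2-g minus 1-g in the p53 list was −0.13, so its larger median in 2-g does not mean that its genes were higher there. Cholesterol synthesis had medians of 0.17, 0.18 and −0.03, and small nucleolar RNAs of −0.17, −0.20 and 0.01.

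**Figure D4:**
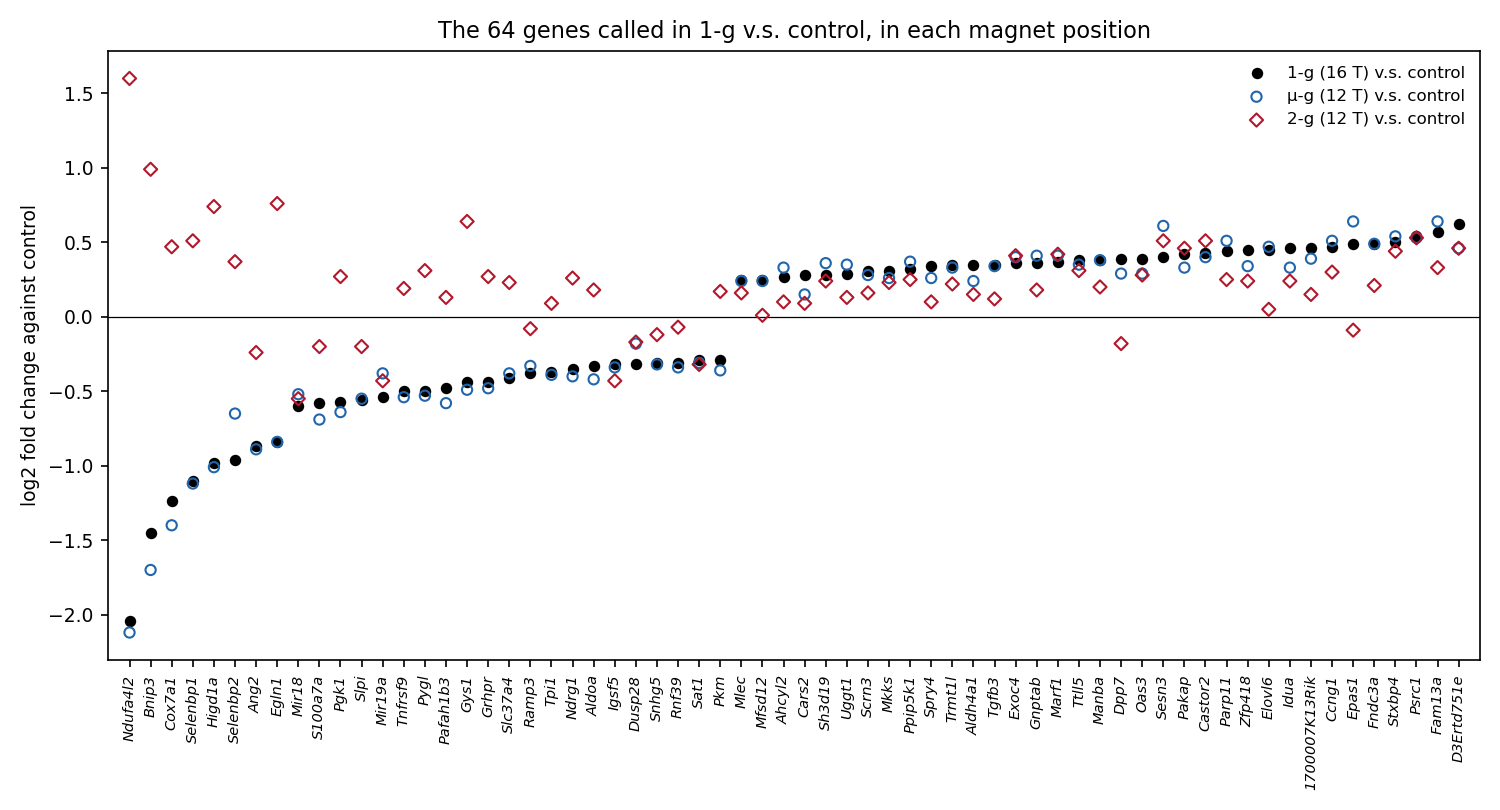
Log2 fold change against control (y axis) of the 64 genes called in 1-g v.s. control (x axis, ordered by that value) in 1-g (black), μ-g (blue circles) and 2-g (red diamonds), all against the same 3 control arrays. For Ndufa4l2 at the left the values are −2.04, −2.12 and 1.60, and for Psrc1 near the right end 0.54, 0.53 and 0.53.

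**Figure D5:**
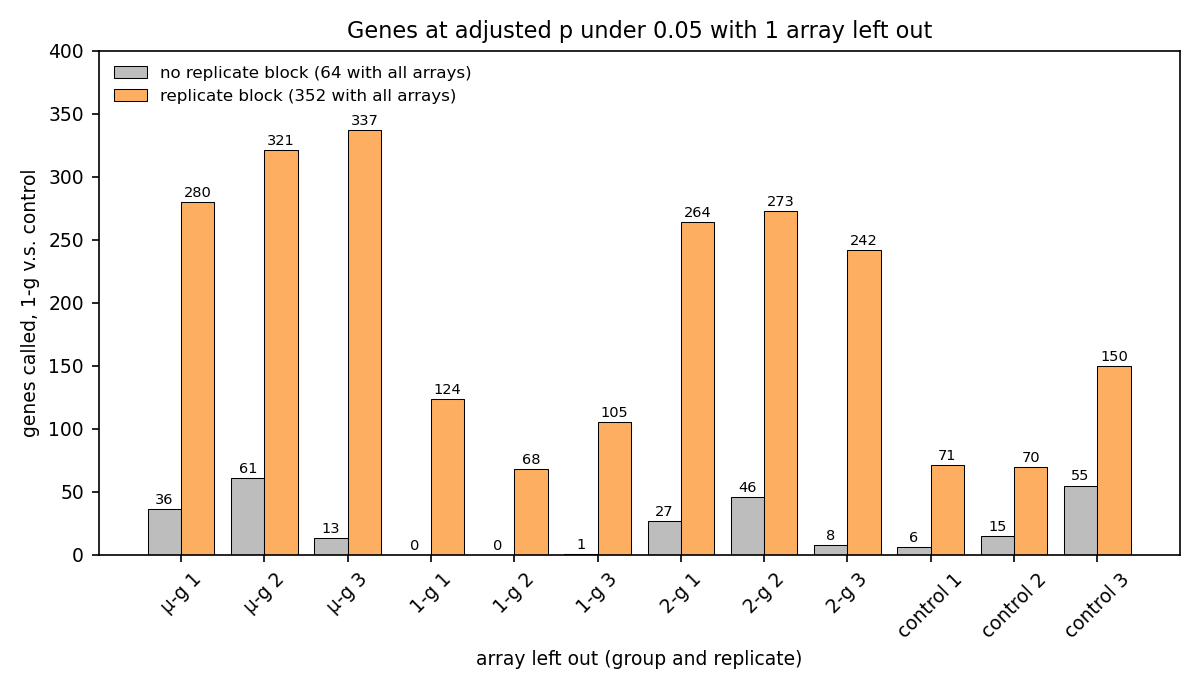
Number of genes called in 1-g v.s. control (y axis) when 1 of the 12 arrays is left out (x axis), without the block (grey, 64 with all arrays) and with it (orange, 352 with all arrays). Without 1-g replicates 1, 2 and 3 the grey bars are at 0, 0 and 1 and the orange bars at 124, 68 and 105, and over all 12 arrays the orange bars run from 68 to 337.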

How the data were processed

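The authors extracted RNA with Trizol, hybridised it to Affymetrix Mouse Gene 1.0 ST arrays, and normalized the intensities by RMA, named in the submitters' processing notes. The deposited table holds log2 values of 28856 transcript clusters for 12 arrays. Raw intensities were not used. Clusters were named through the platform's gene identifiers and current RefSeq symbols. Of the clusters 21789 carry 1 symbol, 1621 several and 5446 none, and 83 identifiers had no current symbol. Of the 19938 genes, 999 had several clusters, and the cluster highest on average was used for these.

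Group means were fitted over all clusters and the 12 arrays by lmFit and eBayes of limma 3.58.1 in R 4.3.3 (8 residual and 3.90 prior degrees of freedom), and p-values were adjusted over the genes by the Benjamini-Hochberg method. The smallest two-sided p of an exact permutation test with 3 arrays a group is 0.1. The methods of the study name LIMMA with a fold change of 1.5 and P under 0.05, read here as unadjusted. Deviations from group means correlated at 0.320, 0.425 and 0.259 between same-numbered arrays of 1-g and control, above the limit of 0.1, so the numbers were taken as pairs. Over all groups 1 same-numbered pair, μ-g and control replicate 3, fell below it (0.0179). A pair with different numbers, μ-g replicate 3 and control replicate 1, lay above it (0.194). The pairing by number is read from the data, as no source used here explains the numbers. The code was tested on simulated data with known changes.

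The comparison, the 38 lists and classes and the rule for named genes were chosen with earlier results of these data known. Named are all called genes, all genes above 1.5-fold at unadjusted P, the largest changes among genes called with the block, and of each list the called members, the extremes and the defining markers. Extremes and markers that passed in neither fit are in part given only through their list's median. Further members of lists, and the block's genes under other observations, were picked after their values were seen. Alternatives were only the 6 arrays, the block, genes above the median level of 7.50, centred arrays, quantile normalization, an intensity trend with robust prior, the mean of a gene's clusters, all clusters, an ordinary t-test of each gene and leaving out each array. The prior fitted to named genes alone, the block on 6 arrays and the block with arrays left out were added after seeing the data. Some genes are not analysed here, such as those whose cluster carries several symbols.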

Additional observations from a re-analysis of the deposited data

Results flagged for a closer look

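Of the 64 genes called in 1-g v.s. control, 27 also responded differently in 2-g, by limma's adjusted p of the difference between 2-g and 1-g. The control arrays cancel in this difference, but the 1-g arrays are those that chose the genes, so its direction is not independent of that choice. Among genes that were lower in 1-g than in control and above control in 2-g, the difference of 2-g minus 1-g was 3.64 for Ndufa4l2, 2.44 for Bnip3, 1.72 for Cox7a1, 1.62 for Selenbp1, 1.72 for Higd1a, 1.33 for Selenbp2, 1.60 for Egln1, 0.85 for Pgk1 and 0.81 for Pygl on the log2 scale. It was 0.69 for Tnfrsf9, 0.61 for Pafah1b3, 1.08 for Gys1, 0.70 for Grhpr, 0.64 for Slc37a4, 0.46 for Tpi1, 0.61 for Ndrg1, 0.51 for Aldoa and 0.46 for Pkm. Genes below control in both positions, and lower in 1-g, were Ang2 (0.64), Slpi (0.36), Ramp3 (0.30) and Rnf39 (0.24). Of the genes that were higher in 1-g, Dpp7 (−0.57) and Epas1 (−0.58) lay below control in 2-g, and Mfsd12 (−0.24), Elovl6 (−0.41) and 1700007K13Rik (−0.31) above it by less than in 1-g. Groups of 3 arrays are too small for a test of single outlying arrays.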

How the results depend on the processing

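The number of genes called in 1-g v.s. control depended on the fit. It was 64 (35 higher, 29 lower), 352 with the block (205 and 147), 349 with the block and quantile normalization (158 and 191), 0 in a fit of only the 6 arrays with or without the block, and 2158 at unadjusted P. Quantile normalization alone gave 20 higher and 25 lower, so the split between rises and falls depends on the scaling. Genes above the median level gave 48 each way. Centred arrays (31 and 30), an intensity trend with robust prior (24 and 21), the mean of a gene's clusters (37 and 37), all clusters (32 and 27) and the prior of named genes alone (37 and 34) stayed within 1.5 times of 64. An ordinary t-test of each gene on 6 arrays passed 1671 genes at its threshold, with 1 higher and 24 lower above 1.5-fold and 11 lower above 2-fold, and 1 gene after Benjamini-Hochberg adjustment (Arnt), so 1 higher and 0 lower. The cause of these differences was not tested, beyond that fits of 6 arrays have fewer samples.

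Leaving out 1 array gave 0 (without 1-g replicate 1 or without 1-g replicate 2) to 61 (without μ-g replicate 2) calls, 0 to 35 of them higher and 0 to 36 lower. It was 1 without 1-g replicate 3, 36 and 13 without μ-g replicates 1 and 3, 27, 46 and 8 without 2-g replicates 1, 2 and 3, and 6, 15 and 55 without control replicates 1, 2 and 3. Unadjusted, 2058 and 1959 genes passed without 1-g replicate 1 and without 1-g replicate 2. With the block the range was 68 to 337, with 124, 68 and 105 without 1-g replicates 1, 2 and 3 and 71, 70 and 150 without control replicates 1, 2 and 3. Genes above 1.5-fold ranged from 28 to 38 and those above 2-fold from 8 (without control replicate 2) to 16 (without control replicate 3). Between 2-g and 1-g 451 genes differed, 1510 with the block and 1461 with the block and quantile normalization, and 168 (without 1-g replicate 1) to 461 with 1 array left out, with 235 and 254 without 1-g replicates 2 and 3 and 203 and 178 without 2-g replicates 2 and 3. Between μ-g and 1-g the count was 0 in every fit run, those with 1 array left out included.

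Every gene that was called or above 1.5-fold kept its direction under each alternative. With the block the 18 of these genes that were above 1.5-fold but not called passed too, and none of the 64 was lost. List medians moved by no more than the spread between arrays in 875 refits and by more in 37. Over all alternatives the median was −0.36 to −0.26 for the hypoxia list, −0.37 to −0.25 for glycolysis, 0.14 to 0.21 for p53 targets, 0.08 (without control replicate 1) to 0.21 for cholesterol synthesis and −0.23 to −0.07 (without 1-g replicate 2) for small nucleolar RNAs. In 13 lists, each with a median within 0.04 of 0, the sign changed in some refit. Without raw intensities, signal over background could not be judged, and 3 arrays per group limit the precision.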

Other observations

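Ppargc1a, Ucp1 and Pdk4 were called with the block alone and were picked here after their values were seen. Ppargc1a, a coactivator of mitochondrial genes, read 9.78, 9.71 and 9.69 in 1-g and 9.55, 9.17 and 9.20 in control (0.42, adjusted p = 0.174 and 0.0207 with the block). Ucp1, the uncoupling protein of brown fat, read 6.35, 6.44 and 6.51 in 1-g and 5.93, 6.04 and 6.24 in control (0.36, adjusted p = 0.0989 and 0.0196). The Ucp1 values lay below the median level of 7.50 over all genes, and without a detection call its expression cannot be stated. Pdk4, which like Pdk1 closes the entry of pyruvate into the TCA cycle, rose with the block (0.35, adjusted p = 0.301 and 0.0157), while Pdk1 fell with it. The groups did not overlap in any of these genes. In 2-g v.s. control Ppargc1a had a log2 fold change of −0.28 and Pdk4 of 0.43.

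Further lysosomal genes passed with the block alone, namely Hexa, a hexosaminidase subunit (0.32, adjusted p = 0.0943 and 0.0196 with the block), Igf2r, the mannose-6-phosphate receptor (0.32, adjusted p = 0.248 and 0.0303), and Lipa, the lysosomal lipase (0.31, adjusted p = 0.261 and 0.0273). No list of lysosomal genes was drawn up, so nothing follows for the lysosome as a group. Histone genes had 0 of 34 called, with a median log2 fold change of −0.09, and olfactory receptors, which these cells should not use, 0 of 1027 with a median of 0.01. Of 362 solute carriers 1 fell (Slc37a4), against 0.145% of all genes, and the median was 0.02. With the block 2 of the 362 rose and 3 fell, beside 1.03% and 0.737% of all genes. Slc25a22 (0.29) and Slc36a1 (0.28) rose, and Slc27a3 (−0.38) and Slc16a3 (−0.34) fell along with Slc37a4.

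Among the largest rises called with the block alone were Ubxn2b (0.48, adjusted p = 0.0708 and 0.0277 with the block), Ehd3 (0.47, adjusted p = 0.0727 and 0.0201) and AA388235 (0.47, adjusted p = 0.104 and 0.0444). Several members at the ends of their lists passed in neither fit. The highest log2 fold change was 0.48 for Slc5a3 among solute carriers, 0.40 for Cxcl9 among cytokines and chemokines, 0.32 for Cenpe among cell cycle genes, 0.32 for Cacna2d1 among channels, 0.31 for Mir693 among microRNA precursors, 0.27 for Hsph1 among heat shock genes, 0.25 for Cd68 among macrophage markers, 0.24 for Clcn7 among osteoclast markers and 0.21 for Adam17 among matrix proteases. The lowest was −0.40 for Snord118 among small nucleolar RNAs, −0.31 for Tnc among collagens and matrix, −0.30 for Ddit3 among ER stress genes, −0.20 for Rpl12 among cytosolic ribosomal proteins and −0.19 for Hfe among iron handling genes.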
